A study of Zea mays with 24 samples.

Results

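The transcript profiles of unstressed maize source leaves were compared between 2 harvests: leaf 6 of plants at day 30 after germination, and leaf 5 of plants at day 20. The samples are 12 of the 24 arrays of the series, and they come from 3 groups of the inbred line B73, with 4 biological replicates each. Control N and control P were the day-30 groups, grown as the unstressed partners of nitrate-limited and phosphate-limited plants, and control T was the day-20 group, grown as the partner of plants with cold nights. All 3 groups had the same nutrient solution, with 15 mM KNO3 and 0.5 mM KH2PO4, days of 14 h at 28 °C and nights of 10 h at 20 °C. The day-30 plants grew in a chamber with about 200 µmol m-2 s-1 of light at the soil and 650 just under the lamps, whereas the day-20 plants grew in another type of chamber with about 600 at the soil and 800 at the highest leaves. Control T and control N were each raised in successive sets of plants, control P in a single set, and the mid part of the leaf blade was taken in the morning. Age, leaf number, chamber, light and the run of the experiment changed together, so they cannot be told apart, and "day 30 against day 20" stands for all of them in what follows.

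A probe was kept when it differed in the same direction in both day-30 groups, that is, when control N and control P were each more than 2-fold higher, or each more than 2-fold lower, than control T with an adjusted p below 0.05 (limma across all tested probes, Benjamini-Hochberg adjustment). Of 41780 transcript probes, 30053 were tested, those detected well above background on every array of control N, of control P or of control T. A total of 3527 probes were kept (11.7% of those tested). Values are log2 levels, meaning the log2 of the probe's fluorescence minus the log2 of the 75th percentile of its array, so a level of 0 is as bright as that percentile, and the difference given for a probe is the mean of control N and control P minus control T. These values chose the probes, so for the kept probes they are a description. Probe names refer to maize gene models (GRMZM identifiers) and to descriptions in the supplementary tables of the study, which cover 4750 of the probes; part of those probes were listed there because they changed under stress in the same experiments.

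A source leaf is a leaf that exports more sugar than it imports. While a grass leaf blade is still maturing, its cells loosen and thicken their walls, and expansins, pectin-modifying enzymes, cellulose synthases and the division machinery are used most near the growing base. Mature leaves also read day length: proteins related to FLOWERING LOCUS T (FT) of Arabidopsis, of which ZCN8 is the best known in maize, are made in leaf veins and travel to the shoot tip to start flowering, where MADS box transcription factors act in meristem and flower identity. The leaf also makes abscisic acid, the hormone that closes stomata, and its committed step is the cleavage of a carotenoid by 9-cis-epoxycarotenoid dioxygenase (NCED).

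The 3 control groups separated mainly by harvest. Component 1 of a principal component analysis over 29926 probes held 56.3% of the variance, with the 8 day-30 arrays between 17.0 and 77.1 and the 4 control T arrays between -131.1 and -56.4. Component 2 held 12.2% and divided control T itself: replicates 1 and 2 lay at -45.6 and -52.6, and replicates 3 and 4 at 69.0 and 62.8. These pairs of control T were hybridised on separate slides, and their means differed by more than 2-fold at 14.0% of the tested probes, against 10.2% between the same pairs of control N and 0.569% in control P, all 4 arrays of which shared a slide. The split was more frequent among the kept probes, with 280 (25.6%) of those higher at day 30 and 688 (28.3%) of those lower, and its part in the results was not tested beyond the fits given below. No slide held arrays of both days, so slide cannot be taken out within a slide.

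**Figure D1:**
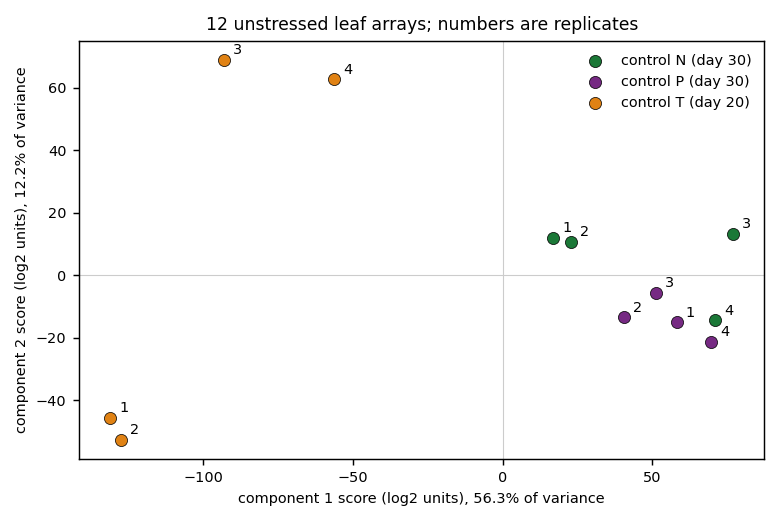
Scores of the 12 unstressed arrays on the first 2 principal components (log2 units, with the percent of variance on each axis), coloured by group and numbered by replicate. The control T arrays all lie below -56 on component 1 and the day-30 arrays all above 17, and component 2 parts control T replicates 3 and 4, at 69.0 and 62.8, and replicates 1 and 2, at -45.6 and -52.6.

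The number of probes well above background was 25780 to 33163 in control N, 29600 to 31363 in control P and 29962 to 35451 in control T. The C4 leaf markers identified the tissue on every array, with all 6 probes for phosphoenolpyruvate carboxylase, pyruvate orthophosphate dikinase, carbonic anhydrase, NADP-malic enzyme, Rubisco small subunit and phosphoenolpyruvate carboxykinase well above background on all 12. None of the 3 mesophyll markers was kept, and 1 of the 3 bundle sheath markers was kept as lower at day 30, the Rubisco small subunit. Of 40 tested probes for histones, DNA replication, cyclins and kinesins, used here as markers of dividing cells, 1 was kept as higher and 11 as lower, and their summed level was 5.31 to 5.76 in control N and 5.09 to 5.31 in control P, against 6.52 to 6.62 in control T (log2). In a whole piece of leaf, fewer cells of a type and less RNA per cell cannot be told apart.

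Under the 2-fold limit, decreases outnumbered increases in the day-30 leaves. In control N against control T, 4776 probes passed (15.9% of those tested), 1633 higher (5.43%) and 3143 lower (10.5%). In control P against control T, 5370 passed (17.9%), 1779 higher (5.92%) and 3591 lower (11.9%). These comparisons share the control T arrays, so they are not independent of each other. The kept probes comprised 1095 higher at day 30 (3.64% of those tested) and 2432 lower (8.09%), and 1 further probe passed in opposite directions. For the annotated probes alone the shares were 10.5% higher (484 of 4631) and 15.5% lower (720 of 4631). Part of the annotated probes were listed for a change under stress, whereas the pathway lists of the study were put together by function. Pathway lists are therefore to be read against the shares over all tested probes as well, and the other gene groups against those of annotated probes.

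The median size of the difference was 1.48 on the log2 scale among kept higher probes, with a maximum of 6.74, and 1.73 among kept lower probes, with a maximum of 8.03. More than 4-fold differences were seen at 235 of the higher and 857 of the lower probes, and more than 8-fold at 62 and 275. All 8 day-30 arrays lay on the same side of all 4 control T arrays at 971 (88.7%) of the higher and 1946 (80.0%) of the lower probes, against 28.1% of all tested probes. At the edge of the rule, the 5 higher probes just inside the limit differed by 1.0009 to 1.0048 in the day-30 group closer to control T, and the 5 just outside by 0.9969 to 0.9995. For the lower probes these sizes were 1.0001 to 1.0022 inside and 0.9986 to 0.9997 outside.

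The balance of higher and lower depended on the fold limit and on the scaling. With no fold limit, 4888 probes were kept as higher and 4882 as lower (50.0% higher). The median difference over all tested probes was 0.017. Scaling each array on its spike-in controls moved that median to -0.53 and left 351 probes higher and 5979 lower (5.55% higher among those kept), whereas quantile normalization gave 1588 higher and 1998 lower (44.3% higher, against 31.0% in the scaling used here). Slide and scan period also mattered. With the slide as a random block, 206 probes were kept as higher and 341 as lower, of which 202 and 339 were among the kept probes above. Arrays were scanned in an earlier and a later period that each held both days, and when control N was set against control T replicates 1 and 2 and control P against control T replicates 3 and 4, 731 probes were kept as higher and 1732 as lower, with 681 and 1636 shared.

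Among probes higher at day 30, the 15 largest differences at annotated loci (bright on all 12 arrays, with day-30 and day-20 values that did not overlap) ran between 11.1-fold and 63.0-fold, and 10 of them also passed with the slide as a random block. The largest was GRMZM2G172214, described as a gamma subunit of AMP-activated protein kinase, a family whose plant members sense the energy state of the cell. Its log2 level was 5.24, 4.93, 6.91 and 6.09 in control N and 6.10, 6.24, 6.49 and 6.73 in control P, against 0.00, 0.00, -0.12 and 0.57 in control T. The lowest day-30 array lay more than 4 log2 units above the highest control T array, the difference was 5.98 ± 0.32 (SE), and adjusted p was 7e-06 for control N and 6.3e-06 for control P. The size depended on the probe: 2 other probes of this locus, both kept as higher, differed by 5.12 and 1.63.

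Genes of membranes and of secondary metabolism followed. GRMZM2G057467, a membrane protein with DoH and cytochrome domains, stood at -0.49, -0.47, 1.68 and 1.15 in control N and 3.09, 2.51, 1.35 and 3.66 in control P, against -3.81, -4.67, -3.14 and -2.61 in control T, a difference of 5.12 ± 0.55 (SE). All day-30 arrays were above all control T arrays. GRMZM2G000423, annotated as an iron- and ascorbate-dependent oxidoreductase by one probe and as a flavanone 3-hydroxylase by another, differed by 4.43 ± 0.41 (SE) and 4.30 ± 0.41 (SE) at its 2 probes. The levels at the oxidoreductase probe were 1.82, 2.01, -0.18 and 0.94 in control N and 1.71, 1.05, 1.04 and 1.85 in control P, against -3.51, -3.79, -2.22 and -3.06 in control T, and the other probe gave similar values on each array. GRMZM2G054115, a pyridoxal phosphate-dependent transferase, averaged 3.28 ± 0.58 in control N and 2.40 ± 0.83 in control P, against -1.83 ± 2.13 in control T (SD, n = 4 each). Its control T arrays split by slide, at -3.78 and -3.54 in replicates 1 and 2 and at 0.26 and -0.26 in replicates 3 and 4, and it did not pass with the slide block.

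Transport and nitrogen recycling genes were also among the largest. Both probes of GRMZM2G044851, a nitrate transporter similar to the Arabidopsis protein that loads nitrate into the xylem, differed by 3.55, with standard errors of 0.27 and 0.28. The levels at the first probe were 2.20, 2.35, 1.64 and 1.47 in control N and 1.67, 1.37, 1.55 and 1.64 in control P, against -2.43, -2.43, -1.24 and -1.16 in control T. All day-30 arrays lay between 1.37 and 2.35, far above control T, and both probes also passed with the slide block. Allantoinase (GRMZM2G173413), an enzyme of purine breakdown, differed by 3.83 ± 0.60 (SE), and GRMZM2G139834, a transporter of the nodulin MtN21 family, by 3.63 ± 0.48 (SE). Both had wide spreads in control T, with SDs of 1.86 and 1.23, and neither passed with the slide block.

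The remaining large increases were in transcription factors and stress proteins. The WRKY factors GRMZM2G432583 and GRMZM2G054125, members of a family that acts in defence and leaf ageing, differed by 3.54 ± 0.28 (SE) and 3.41 ± 0.26 (SE). The levels of GRMZM2G432583 were -0.58, -1.27, -0.41 and 0.48 in control N and 0.08, -0.36, -0.54 and 0.07 in control P, against -3.81, -3.91, -3.40 and -4.33 in control T, with a gap of more than 2 log2 units between the days. GRMZM2G158117, annotated with chaperone and homeodomain-like features and listed as MYBR87, averaged 3.03 ± 0.27 in control N and 2.81 ± 0.13 in control P, against -0.61 ± 0.90 in control T (SD, n = 4 each). The copper chaperone GRMZM2G119967 differed by 3.56 ± 0.75 (SE), with control T on 3 arrays since the spot of replicate 3 was an outlier. The glutathione S-transferase GST39 (GRMZM2G028821), a detoxifying enzyme, differed by 3.54 ± 0.80 (SE), and its control T arrays were at -4.26 and -5.12 in replicates 1 and 2 and at -0.65 and -0.73 in replicates 3 and 4.

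Genes of abscisic acid synthesis were among the clearest increases. Of 6 tested NCED-family probes 3 were kept as higher and 1 as lower, and the median of the list was 2.15, against -0.124 over all annotated probes. GRMZM2G110192 had log2 levels of 5.72, 5.60, 5.74 and 5.53 in control N and 5.26, 5.59, 5.79 and 6.05 in control P, against 0.78, 1.04, 1.99 and 2.81 in control T. The day-30 arrays fell in a narrow band between 5.26 and 6.05, and the difference was 4.01 ± 0.32 (SE), with adjusted p = 3e-05 and 3.4e-05 for control N and control P. GRMZM2G150363 had 4.07, 4.17, 4.08 and 3.58 in control N and 3.30, 3.63, 3.94 and 3.82 in control P, against -1.15, -1.12, 0.42 and 1.35 in control T, and GRMZM2G407181 had 4.02, 3.82, 3.14 and 3.56 in control N and 2.92, 3.25, 3.66 and 3.50 in control P, against -0.57, -0.62, 0.14 and 1.11 in control T. At all 3 genes control T replicates 3 and 4 were above replicates 1 and 2 but below every day-30 array, and all 3 passed with the slide block. The member that was lower at day 30 was GRMZM2G446858, listed as CCD8, a carotenoid cleavage enzyme of strigolactone synthesis rather than of abscisic acid. It averaged -5.31 ± 1.21 in control N and -5.90 ± 0.65 in control P, against -2.85 ± 1.36 in control T (SD, n = 4 each), and its day-30 and control T arrays overlapped.

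Florigen-like genes moved in different directions. Of 8 tested probes for FT-like proteins, 2 were kept as higher and 1 as lower, and the median was 0.51; this median turned negative under normexp background correction (-0.08) and spike-in scaling (-0.04). ZCN8 (GRMZM2G179264), the leaf-made flowering signal of maize, had log2 levels of -0.46, -0.89, 0.87 and 0.02 in control N and 0.72, 0.74, 1.04 and -0.12 in control P, against -4.43, -4.45, -2.09 and -2.59 in control T. All day-30 arrays were above all control T arrays, the difference was 3.63 ± 0.48 (SE), or 12.4-fold, and adjusted p was 0.00095 for control N and 0.00029 for control P; it also passed with the slide block. ZCN18 (GRMZM2G158809), a related family member, had 0.72, 0.92, 1.64 and 1.41 in control N and 1.1, 0.78, 0.15 and 1.47 in control P, against -0.55, -0.80, -0.17 and -0.85 in control T, a smaller difference of 1.61 ± 0.25 (SE) without overlap. The family member GRMZM2G092008 was lower at day 30, with -2.20, -2.06, -3.20 and -2.81 in control N and -2.38, -2.14, -2.19 and -2.33 in control P, against -0.34, -0.52, -1.34 and -2.03 in control T; this call was lost without control T replicate 1 (-1.12). ZCN26 (GRMZM2G400167), described as a floral inducer, did not pass in control P (difference -0.64, adjusted p = 0.24), and averaged -0.03 ± 0.80 in control N and 0.62 ± 0.79 in control P, against 1.26 ± 0.29 in control T (SD, n = 4 each).

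Of the 12 tested MADS box probes, 6 were kept as higher at day 30 and none as lower, and the 6 came from 3 of 9 loci; with the slide block 2 were kept. The median of the list was 1.02, but under normexp background correction it was 0.04 and no member was kept. GRMZM2G105387 had, at the brighter of its probes, -0.94, -0.91, -1.31 and -1.18 in control N and 0.38, 0.17, 0.32 and -0.18 in control P, against -2.87, -2.78, -2.20 and -2.54 in control T. The groups did not overlap, the difference was 2.14 ± 0.15 (SE), and control N was lower than control P, with a difference of -1.26 (adjusted p = 0.016). The dimmer probe of the same locus differed by 3.12 ± 0.30 (SE). MADS67 (GRMZM2G147716) had -3.14, -3.75, -2.11 and -3.82 in control N and -1.56, -2.10, -2.12 and -2.01 in control P, against -6.37, -5.78, -4.38 and -5.63 in control T at its brighter probe, and at the dimmer probe, not well above background on any control T array, control N was at least 2.9-fold and control P at least 8.8-fold higher. Such a bound sets the mean of the bright group against the mean of the dim group, in which each array enters at its own value or at the lowest signal that was well above background there, whichever is higher. The probes of GRMZM2G120227 differed by 1.27 ± 0.20 (SE) and 1.76 ± 0.32 (SE), the day-30 and day-20 arrays overlapped through control T replicate 3, and the smaller of them was lost without any of 5 arrays (1.14 to 1.26) and turned to -0.05 under normexp.

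Of 11 probes for circadian and CONSTANS-like genes, which link the daily clock to flowering, 2 were kept as higher and none as lower, with a median of 0.53 that became -0.02 under spike-in scaling. GRMZM2G033962, described as a component of a temperature-sensitive circadian system, had -2.34, -2.49, -1.81 and -2.71 in control N and -3.24, -3.28, -3.16 and -2.94 in control P, against -5.57, -5.90, -4.92 and -4.94 in control T. Control N and control P were each clear of control T, and the gene passed with the slide block. The B-box zinc finger gene GRMZM2G356202 differed by 1.22 ± 0.34 (SE), with control T at -2.86 and -2.99 in replicates 1 and 2 and at -1.5 and -1.34 in replicates 3 and 4, the last 2 inside the range of control N, and the call was lost without any of 8 arrays (0.94 to 1.24).

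**Figure D2:**
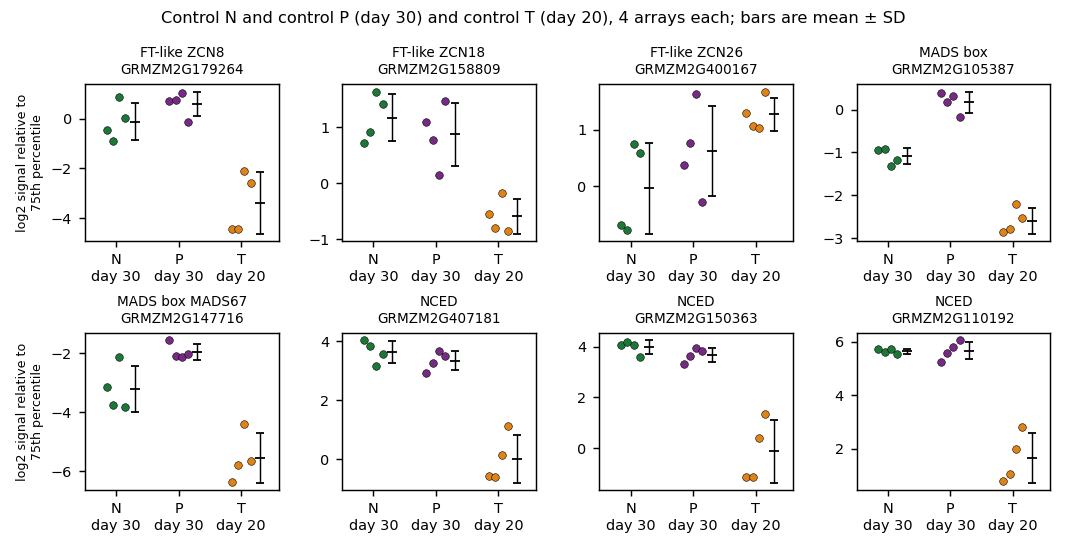
Log2 level, with 0 at the array's 75th percentile, of FT-like, MADS box and NCED genes on each of the 12 unstressed arrays, 4 per group in replicate order, with bars for mean ± SD. Every gene shown is higher in control N and control P than in control T except ZCN26, where control N averaged -0.03, control P 0.62 and control T 1.26.

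Many of the lower probes at day 30 belonged to genes that loosen cell walls. Of 56 tested probes for expansins, pectin-modifying enzymes and xyloglucan enzymes, 28 (50.0%) were kept as lower and none as higher, against 15.5% lower among annotated probes, and the median was -1.42, against -0.124. Expansins are wall proteins that let walls extend, and the largest differences were in beta-expansins. GRMZM2G094990 had log2 levels of 0.60, 0.13, -1.64 and -1.74 in control N and -2.13, -0.98, -1.04 and -2.50 in control P, against 3.74, 3.77, 3.53 and 3.69 in control T. The 4 control T arrays lay between 3.53 and 3.77, far above all day-30 arrays, and the difference was -4.85 ± 0.45 (SE), or 28.7-fold. The beta-expansins expB8 (GRMZM2G013002), expB6 (GRMZM2G176595) and expB7 (GRMZM2G342246) differed by -4.65 ± 0.44 (SE), -4.62 ± 0.44 (SE) and -4.49 ± 0.47 (SE). Near-identical beta-expansins can hybridise to each other's probes, so these 4 may not be separate measurements, and all 4 passed with the slide block.

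Genes of pectin modification were among the lower ones. GRMZM2G037431, a pectin lyase-like protein, was at -5.33, -5.83, -6.94 and -6.46 in control N and -8.01, -7.78, -7.69 and -8.26 in control P, against -1.47, -1.98, -2.43 and -3.27 in control T. It was not well above background on any control P array and on 2 of 4 control N arrays, so control P was at least 14.8-fold lower at this probe and at least 18.3-fold lower at a second probe. The pectinesterase gene GRMZM2G128682, whose product strips methyl groups off pectin, was well above background on all 4 control T arrays and on no day-30 array, which put it at least 3.3-fold lower in control N and 4.1-fold lower in control P. GRMZM2G060029, an armadillo repeat protein also below background on all day-30 arrays, was at least 8.6-fold lower in control N and 10.8-fold lower in control P, with measured means of -7.68 ± 0.92 in control N and -7.62 ± 0.85 in control P, against -2.75 ± 0.21 in control T (SD, n = 4 each).

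Part of the cellulose synthase genes were also lower. Of 22 tested probes for cellulose biosynthesis, 10 (45.5%) were kept as lower and 1 as higher, with a median of -1.58. GRMZM2G113432 had -0.52, -0.61, -1.69 and -1.77 in control N and -1.79, -1.36, -1.76 and -1.67 in control P, against 2.52, 2.42, 1.67 and -0.19 in control T, a difference of -3.0 ± 0.46 (SE). CslF6-1 (GRMZM2G110145), of the family that makes mixed-linkage glucan in grass walls, differed by -2.70 ± 0.46 (SE), and GRMZM2G122277 by -2.61 ± 0.44 (SE). In both, control N replicates 1 and 2 lay between the other day-30 arrays and control T. The member that was higher, GRMZM2G014558, had 6.70, 6.60, 8.08 and 7.57 in control N and 7.10, 7.29, 7.09 and 7.26 in control P, against 2.24, 2.07, 6.39 and 7.21 in control T; control T replicates 3 and 4 were within or near the day-30 range and replicates 1 and 2 far below it, and the call was lost without any of 10 arrays (differences of 1.93 to 2.84). None of the 11 cellulose probes passed with the slide block, and 11 of the wall-loosening probes did.

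Division and cytoskeleton genes were lower in part. The 11 lower members of the dividing-cell list included the replication factor subunit RFC4 (GRMZM2G044989), which loads the replication clamp, at -5.30, -5.82, -7.14 and -6.61 in control N and -5.31, -4.67, -4.56 and -6.27 in control P, against -3.42, -3.77, -2.61 and -2.68 in control T, and a kinesin-like motor protein (GRMZM2G021101) with a difference of -2.38 ± 0.48 (SE). The single higher member, a DNA polymerase theta-like protein (GRMZM2G023422), differed by 3.01 ± 0.47 (SE) and was well above background on 1 control T array. The median over the list was -0.91, and with the slide block 1 probe was kept as lower and none as higher. The lower summed level of these markers in every day-30 array, given above, accompanied the lower wall genes, and its part in them was not tested. Of 12 cytoskeleton probes 2 were lower, the alpha tubulin GRMZM2G342493 by -1.39 ± 0.30 (SE) and the actin-related GRMZM2G047055, which had -2.57, -2.68, -3.16 and -2.78 in control N and -3.07, -3.07, -2.95 and -3.32 in control P, against -1.55, -1.49, -1.36 and -1.24 in control T. A second probe of GRMZM2G047055 differed by -1.07 and was not kept.

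**Figure D3:**
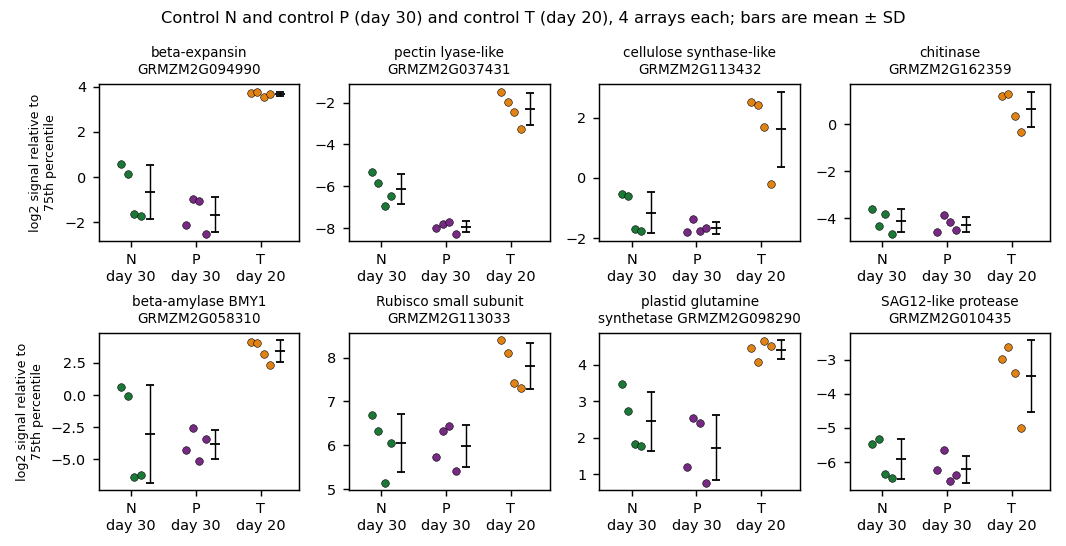
Log2 level, with 0 at the array's 75th percentile, of wall, defence, carbohydrate, photosynthesis and nitrogen genes on each of the 12 unstressed arrays, 4 per group in replicate order, with bars for mean ± SD. In every panel all control N and control P points lie below all control T points; for the beta-amylase BMY1 control N runs between -6.38 and 0.65.

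Chitinases, thaumatins and glucanases, which attack fungal walls and also act on plant glucans, were lower at 13 of 30 probes and higher at 3, with a median of -1.22. With the slide block 6 were kept as lower and none as higher. The chitinase GRMZM2G162359 had -3.60, -4.33, -3.83 and -4.66 in control N and -4.57, -3.88, -4.15 and -4.51 in control P, against 1.20, 1.30, 0.37 and -0.31 in control T. The gap between the days exceeded 3 log2 units and the difference was -4.83 ± 0.31 (SE). GRMZM2G328171 differed by -4.49 ± 0.40 (SE), and GRMZM2G117942 by -3.01 ± 0.51 (SE), with control N replicate 3 at 2.04, close to control T replicates 3 and 4 at 2.39. The chitinase GRMZM2G430942 went the other way, with -3.17, -3.39, -3.33 and -3.31 in control N and -2.76, -2.23, -2.31 and -3.06 in control P, against -8.82, -7.88, -5.36 and -5.14 in control T, and 2 of its control T arrays were not well above background.

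Proteases and other hydrolases were among the 15 largest decreases at annotated loci (bright on all 12 arrays, with day-30 and day-20 values that did not overlap). These 15 ran between 16.4-fold and 91.9-fold, and 12 of them passed with the slide block. Probes outside this set reached larger decreases. The largest within it was a serine carboxypeptidase (GRMZM2G373607) at -4.85, -4.79, -4.31 and -4.02 in control N and -3.17, -1.08, -1.94 and -3.53 in control P, against 4.68, 4.56, 3.10 and -0.10 in control T. Control T replicate 4 was far below the other control T arrays, yet above every day-30 array, and this gene did not pass with the slide block. The aspartyl protease GRMZM2G053206 was more even, with 0.20, -0.05, -2.21 and -1.38 in control N and -2.47, -0.56, -1.75 and -1.91 in control P, against 3.66, 3.77, 3.42 and 3.17 in control T, and differed by -4.77 ± 0.45 (SE). Over the lists of proteases, 11 of 42 aspartyl protease probes were lower and 3 higher, 11 of 62 serine protease probes were lower and 1 higher, and 3 of 29 cysteine protease probes were lower and 5 higher. The share of serine protease probes that were lower (17.7%) was near that of annotated probes (15.5%) and above that of all tested probes (8.09%). With the slide block 4 aspartyl, 3 serine and 1 cysteine protease probes were kept as lower. A GDSL-type lipase (GRMZM2G042758) differed by -4.31 ± 0.41 (SE), a beta-glucosidase (GRMZM2G120962) by -5.22 ± 0.81 (SE) and an acid phosphatase of the HAD superfamily (GRMZM2G371793) by -4.46 ± 0.32 (SE).

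The other large decreases included a UDP-glycosyltransferase (GRMZM2G083130), which attaches sugars to small molecules and whose 2 probes differed by -4.29 ± 0.34 (SE) and -4.23 ± 0.33 (SE). Its levels at the first probe were 0.09, 0.34, -1.40 and -1.33 in control N and 0.44, 0.47, 0.09 and -0.52 in control P, against 4.22, 4.26, 3.96 and 3.79 in control T. A mannose-6-phosphate isomerase (GRMZM2G456471) differed by -4.05 ± 0.30 (SE) and passed with the slide block, and a transporter of the ABC superfamily (GRMZM2G399594) differed by -5.42 ± 0.63 (SE) and did not. Glycosyltransferases as a group were even, with 10 of 59 probes higher and 10 lower, and so were cytochromes P450 (6 and 8 of 51) and peroxidases (6 and 6 of 30).

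Flavonoid genes showed both directions: of 19 tested probes, 6 were kept as higher and 3 as lower, with a median of 0.49 that became -0.06 under spike-in scaling. The flavonol synthase GRMZM2G152801, which makes a class of ultraviolet-absorbing pigments, had -0.85, -0.80, -1.74 and -1.80 in control N and -2.39, -1.43, -2.43 and -2.01 in control P, against 3.92, 3.77, 2.80 and 1.54 in control T and differed by -4.69 ± 0.42 (SE). The flavanone 3-hydroxylase fht1 (GRMZM2G062396), an earlier enzyme of the pathway, had -1.45, -1.20, -2.06 and -1.61 in control N and -2.31, -1.78, -2.15 and -2.41 in control P, against 3.08, 3.18, 1.45 and -0.15 in control T. Both were lower at day 30, and in both control T was highest in replicates 1 and 2 and lowest in replicate 4. The glutathione S-transferase bz2 (GRMZM2G016241), which acts in anthocyanin storage, averaged -3.28 ± 0.79 in control N and -3.27 ± 0.51 in control P, against 0.47 ± 2.82 in control T (SD, n = 4 each), and control T replicate 4, at -3.04, lay among the day-30 arrays; the call was lost without control T replicate 1 (-3.09).

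The most uneven of the lower genes were glutathione peroxidases, enzymes that reduce peroxides. GRMZM2G011025 had -5.88, -5.69, -5.67 and -5.95 in control N and -5.01, -4.53, -5.58 and -4.08 in control P, against 4.16, 4.22, -0.38 and -3.97 in control T. Its control T arrays spanned more than 8 log2 units, with 4.22 in replicate 2 and -3.97 in replicate 4, while the day-30 arrays stayed below -4. GRMZM2G013299, at -5.32, -4.70, -5.04 and -5.31 in control N and -3.55, -4.59, -4.96 and -3.75 in control P, against 4.31, 4.38, -0.15 and -3.66 in control T, followed it array by array, and the probes may hybridise to both genes.

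No probe for the photosystems was kept under the scaling used here. None of 15 probes for photosystem I and none of 11 for photosystem II was kept, and the medians were -0.58 and -0.87. Of 27 Calvin cycle probes 4 were kept as lower and none as higher. These counts depended on the scaling: scaled on the spike-in controls, 7 photosystem I probes (median -1.15), 10 photosystem II probes (median -1.42) and 18 Calvin cycle probes were kept as lower, whereas with the slide block none was. The Rubisco small subunit rbcS (GRMZM2G113033), the nuclear-encoded part of the enzyme that fixes CO2, had 6.69, 6.33, 5.15 and 6.05 in control N and 5.73, 6.32, 6.43 and 5.42 in control P, against 8.39, 8.10, 7.43 and 7.30 in control T and differed by -1.79 ± 0.31 (SE), or 3.46-fold. The triosephosphate isomerase GRMZM2G002807 differed by -2.05 ± 0.22 (SE). A probe for the Rubisco large subunit (GRMZM2G450762) differed by -1.40 ± 0.40 (SE), with day-30 and control T arrays that overlapped and a call that was lost without any of 9 arrays (-1.53 to -1.27).

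Most probes for C4 photosynthesis were not kept. C4 phosphoenolpyruvate carboxylase (GRMZM2G083841) averaged 8.64 ± 0.15 in control N and 8.31 ± 0.29 in control P, against 9.03 ± 0.31 in control T, NADP-malic enzyme ME1 (GRMZM2G085019) averaged 6.71 ± 0.07 in control N and 6.61 ± 0.29 in control P, against 7.09 ± 0.11 in control T and phosphoenolpyruvate carboxykinase (GRMZM2G001696) averaged 7.37 ± 0.19 in control N and 7.11 ± 0.07 in control P, against 6.54 ± 0.24 in control T (SD, n = 4 each). Of 18 C4 shuttle probes 2 were kept as lower and 1 as higher. The dicarboxylate transporter DiT1 (GRMZM2G383088), which exchanges organic acids across the chloroplast envelope, had 3.60, 3.26, 2.03 and 2.01 in control N and 2.26, 2.26, 2.57 and 1.76 in control P, against 4.73, 4.51, 4.69 and 4.35 in control T. A second NADP-dependent malic enzyme (GRMZM2G159724) was higher at day 30 by 1.34 ± 0.28 (SE), and a chloroplast NAD-dependent malate dehydrogenase (GRMZM2G161245) was lower, with a difference of -1.56 ± 0.17 (SE).

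In carbohydrate metabolism, 4 of 32 sucrose probes (12.5%) and 3 of 28 starch probes (10.7%) were lower at day 30, and 1 of each was higher. These lower shares lay between those of all tested probes (8.09%) and of annotated probes (15.5%). With the slide block 1 sucrose probe was kept as lower and no starch probe was kept. The beta-amylase BMY1 (GRMZM2G058310), which releases maltose from starch, had 0.65, -0.09, -6.38 and -6.20 in control N and -4.30, -2.57, -5.10 and -3.41 in control P, against 4.12, 4.03, 3.21 and 2.36 in control T. The difference was -6.85 ± 1.27 (SE), but control N itself divided, with replicates 1 and 2 more than 6 log2 units above replicates 3 and 4, which were not well above background. The vacuolar invertase ivr2 (GRMZM2G089836), which splits sucrose in growing cells, had -0.16, 0.06, 0.83 and -0.34 in control N and 2.12, 1.77, 1.59 and 1.66 in control P, against 2.25, 2.6, 4.21 and 3.91 in control T, with control P between control N and control T. The cell wall invertase incw1 (GRMZM2G139300) averaged -0.08 ± 0.42 in control N and -0.60 ± 0.20 in control P, against 1.23 ± 0.07 in control T (SD, n = 4 each) and passed with the slide block. A putative sucrose synthase (GRMZM2G060659) was not well above background on any control P array, where it was at least 9.1-fold lower than in control T.

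The starch gene that was higher was sh2 (GRMZM2G429899), a subunit of ADP-glucose pyrophosphorylase, the first committed enzyme of starch synthesis, at 1.80, 1.74, 0.35 and 0.89 in control N and 0.75, 0.65, 0.84 and 0.61 in control P, against -0.62, -0.32, -0.63 and -0.41 in control T. The isoamylase SU1 (GRMZM2G138060), which trims branches during starch formation, was lower, with a difference of -1.43 ± 0.32 (SE). Of 23 probes of the oxidative pentose phosphate pathway, which supplies NADPH, 2 were higher and 2 lower. The higher members were pgd3 (GRMZM2G440208), a cytosolic 6-phosphogluconate dehydrogenase with 3.20, 2.72, 3.59 and 3.39 in control N and 3.41, 4.56, 4.19 and 2.72 in control P, against -0.01, -0.22, 1.98 and 3.19 in control T, and a glucose-6-phosphate dehydrogenase (GRMZM2G177077) with a difference of 1.66 ± 0.22 (SE). In pgd3 control T replicate 4 lay within the day-30 range, and the call was lost without any of 5 arrays (1.75 to 2.24). Glycolysis (1 higher and 2 lower of 40), the TCA cycle (1 lower of 25) and photorespiration (none of 20) had smaller shares than annotated probes as a whole. Their shares were also below those of all tested probes (3.64% higher and 8.09% lower), on few probes.

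In nitrogen assimilation, 2 nitrate reduction probes were kept as higher at day 30 and 1 glutamine synthetase probe as lower. Of 6 nitrate reduction probes 2 were kept as higher and none as lower, with a median of 1.13 that stayed positive under spike-in scaling (0.58), although no member was then kept, and none was kept with the slide block. The 2 kept probes are described as minor cytosolic isoforms of nitrate reductase, the first enzyme of nitrate use, GRMZM2G104898 and GRMZM2G428027, whose values ran together and may not be separate. GRMZM2G104898 had 2.73, 2.61, 2.73 and 2.47 in control N and 2.86, 3.28, 2.99 and 2.40 in control P, against 0.73, 0.44, 2.00 and 2.61 in control T, and control T replicate 4 lay within the day-30 range. The calls were lost without any of 6 arrays for GRMZM2G104898 (0.98 to 1.34) and any of 9 for GRMZM2G428027 (0.97 to 1.37). Of 7 probes for the GS/GOGAT cycle, 1 was lower: the chloroplastic glutamine synthetase gln1 (GRMZM2G098290), which fixes ammonium in the leaf, at 3.47, 2.73, 1.83 and 1.78 in control N and 1.19, 2.55, 2.41 and 0.77 in control P, against 4.45, 4.07, 4.65 and 4.51 in control T. The groups did not overlap and the difference was -2.33 ± 0.39 (SE), but a second probe of this locus differed by -0.79 and was not kept, and the first did not pass with the slide block.

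Of 8 nitrate transport probes, 2 were higher and 1 lower. Beside GRMZM2G044851 described above, a high-affinity transporter family member (GRMZM2G455124) was higher by 1.24 ± 0.20 (SE), a call lost without control N replicate 1 or control T replicate 4 (1.1 to 1.16). The low-affinity transporter GRMZM2G150468 was lower, with -3.29, -3.45, -2.52 and -3.01 in control N and -3.01, -2.73, -2.84 and -2.89 in control P, against 1.39, 1.55, -1.20 and -2.80 in control T. Control T replicates 1 and 2 carried that difference, while replicate 4 was at the level of the day-30 arrays, and the call was lost without replicate 1 or 2 (-2.15 and -2.10).

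Amino acid synthesis probes that passed were lower, apart from 2 higher probes in aspartate, asparagine and alanine metabolism (2 lower, of 16). The lower shares of these lists ran between 12.5% and 28.6%, against 15.5% of annotated probes and 8.09% of all tested probes. The counts were 8 lower of 39 probes for aromatic amino acids, 4 of 14 for leucine, valine and isoleucine, 3 of 14 for arginine and proline, 3 of 20 for threonine and lysine and 3 of 18 for serine, glycine and cysteine. With the slide block 1 probe each was left for the branched-chain and the threonine and lysine lists and none for the others. A D-3-phosphoglycerate dehydrogenase (GRMZM2G098423), the entry to serine synthesis, had 0.66, 0.29, -0.97 and -0.61 in control N and 0.25, 0.55, 0.64 and -0.25 in control P, against 2.87, 2.76, 3.14 and 2.84 in control T. The aspartate kinase AK1 (GRMZM2G024686) differed by -2.24 ± 0.23 (SE), a ketol-acid reductoisomerase of branched-chain synthesis (GRMZM2G161868) by -2.02 ± 0.16 (SE) and a tryptophan synthase beta chain (GRMZM2G005024) by -1.99 ± 0.20 (SE). The delta-1-pyrroline-5-carboxylate synthetases GRMZM2G028535 and GRMZM2G375504, which start proline synthesis, differed by -2.69 ± 0.26 (SE) and -1.21 ± 0.15 (SE). The gene bx1 (GRMZM2G085381), a tryptophan synthase alpha homologue that starts benzoxazinoid defence compounds, averaged 1.14 ± 1.40 in control N and 1.76 ± 0.71 in control P, against 4.34 ± 2.01 in control T (SD, n = 4 each). Its groups overlapped, and the call was lost without any of 6 arrays (-3.0 to -2.29).

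Most of the phosphate-related probes that passed were lower at day 30, as were most kept probes over all tested probes. The counts were 1 of 17 phosphate transporter probes (5.88%) and 2 of 10 probes (20.0%) for SPX proteins, which sense phosphate status. For acid phosphatases the count was 4 of 12 (33.3%). The lower share was 8.09% over all tested probes and 15.5% over annotated probes, and these lists hold few probes. None was higher in these lists and none was kept with the slide block. In a further list of 7 phosphate-related probes, 1 was higher and none lower (median 0.37), a CAX1-like antiporter (GRMZM2G004414) with a difference of 1.35 ± 0.21 (SE). The transporter was PHT4;4-like (GRMZM2G088196) with a difference of -1.34 ± 0.25 (SE). The SPX2-like gene GRMZM2G035579 had -3.68, -3.49, -3.48 and -3.71 in control N and -3.50, -3.17, -3.28 and -3.16 in control P, against -1.60, -1.55, -1.90 and -2.55 in control T, and the SPX-MFS membrane protein GRMZM2G166976 differed by -1.82 ± 0.28 (SE). The purple acid phosphatase GRMZM2G434170, of a family that releases phosphate from organic compounds, had -3.43, -3.23, -3.91 and -3.20 in control N and -2.70, -2.29, -2.77 and -2.71 in control P, against 1.90, 2.11, -0.73 and -1.74 in control T. Control T replicates 1 and 2 were above replicates 3 and 4 there and also for GRMZM2G093101, where the difference was -2.47 ± 0.33 (SE); a second probe of GRMZM2G093101 had the opposite sign, 0.98, and was not kept.

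Senescence genes did not move as 1 group. Of the 5 senescence markers of the study 3 were kept as lower and none as higher, and their summed level was 2.55 to 3.76 in control N and 2.24 to 3.14 in control P, against 4.53 to 4.86 in control T. With the slide block none of the 5 markers was kept, and under normexp background correction 1 was kept as lower. The SAG12-like cysteine protease GRMZM2G010435, named for an Arabidopsis gene that is switched on in senescing leaves, had -5.48, -5.33, -6.33 and -6.47 in control N and -6.23, -5.65, -6.56 and -6.37 in control P, against -2.97, -2.62, -3.38 and -4.99 in control T and was dim at day 30, well above background on 2 control N arrays and 1 control P array. Another SAG12-like protease (GRMZM2G045706) was higher at day 30 by 1.84 ± 0.22 (SE), and so was see2b (GRMZM2G093032), an asparaginyl peptidase of the vacuole, at 5.91, 6.18, 5.29 and 5.35 in control N and 5.66, 5.20, 5.13 and 6.11 in control P, against 1.97, 1.87, 2.46 and 3.06 in control T. The day-30 arrays of see2b lay at least 2 log2 units above control T, and the gene passed with the slide block. Of 27 autophagy probes 1 was higher and none lower.

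Chlorophyll breakdown genes were lower where they passed. Of 7 probes 3 were kept as lower: the chlorophyllases GRMZM2G103197 and GRMZM2G127421, with differences of -2.59 ± 0.38 (SE) and -1.33 ± 0.16 (SE), and a chlorophyll b reductase (GRMZM2G065194), with a difference of -1.28 ± 0.14 (SE), a call lost without control P replicate 4 (-1.23). Another chlorophyll b reductase (GRMZM2G170013) averaged 1.04 ± 0.15 in control N and 0.93 ± 0.14 in control P, against -0.05 ± 0.25 in control T (SD, n = 4 each) and was just short of the 2-fold limit in control P; it passed without control P replicate 2 or control T replicate 3 (1.07 and 1.16). The stay-green homologue SGR2 (GRMZM2G091837) averaged -0.56 ± 0.30 in control N and -0.48 ± 0.50 in control P, against -1.46 ± 0.09 in control T, with a difference of 0.94 ± 0.20 (SE), which was also under 2-fold. The Myb factor MYB-IF35 (GRMZM2G051256) from the list of senescence-related factors was lower, with a difference of -1.23 ± 0.22 (SE), a call lost without control T replicate 1 or 2 (-1.08 and -1.06).

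Among the other transcription factors, 7 of 27 WRKY probes were higher and 1 was lower (median 0.49, which became -0.06 under spike-in scaling), and 3 of 11 ERF and DREB probes were lower and none higher. EREB92 (GRMZM2G174347), of the ethylene response factor family, had -1.51, -2.13, -1.92 and -2.18 in control N and -2.28, -2.07, -2.18 and -2.33 in control P, against -0.55, -0.65, -0.65 and -0.75 in control T and passed with the slide block. Of 9 terpene synthase probes 5 were higher and 1 lower, with a median of 1.23. GRMZM2G096286, a terpenoid cyclase, had 2.31, 2.30, 2.78 and 3.0 in control N and 2.62, 2.69, 2.73 and 2.80 in control P, against -1.15, -1.34, 0.74 and 0.90 in control T, and TPS3 (GRMZM2G064406) differed by 1.38 ± 0.26 (SE), a call lost without control T replicate 4 (1.11), whereas TPS20-Del (GRMZM2G016254) was lower, with a difference of -2.57 ± 0.28 (SE). The allene oxide synthase aos (GRMZM2G067225), of jasmonate synthesis, was lower, with a difference of -2.48 ± 0.42 (SE), and 2 of 24 probes of that list were lower and 1 higher. Heat shock proteins and chaperones (9 higher and 10 lower of 53) and amino acid transporters (8 and 6 of 40) went both ways, and the transporter GRMZM2G101125 gave 2.26 ± 0.23 (SE) and 2.18 ± 0.22 (SE) at its 2 probes.

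Ribosomal protein genes differed at a small share of their 204 probes, with 2 higher and 9 lower and a median of 0.17, which became -0.38 under spike-in scaling. No probe of 13 for trehalose phosphate synthase and none of 8 for phosphate regulation was kept. Genes measured on the day-30 side alone were few, 5 probes in all, and among them the receptor-like protein RLP46 (GRMZM2G386952) was at least 5.4-fold higher in control N and 6.1-fold in control P, and a jumonji-domain protein (GRMZM2G108589) at least 2.8-fold and 3.4-fold higher. On the other side, 34 kept probes were well above background on all control T arrays and on none at day 30. These 2 counts are not directly comparable. The first asks for signal on 8 arrays and the second for signal on 4, and the number of detected probes varied between arrays.

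**Figure D4:**
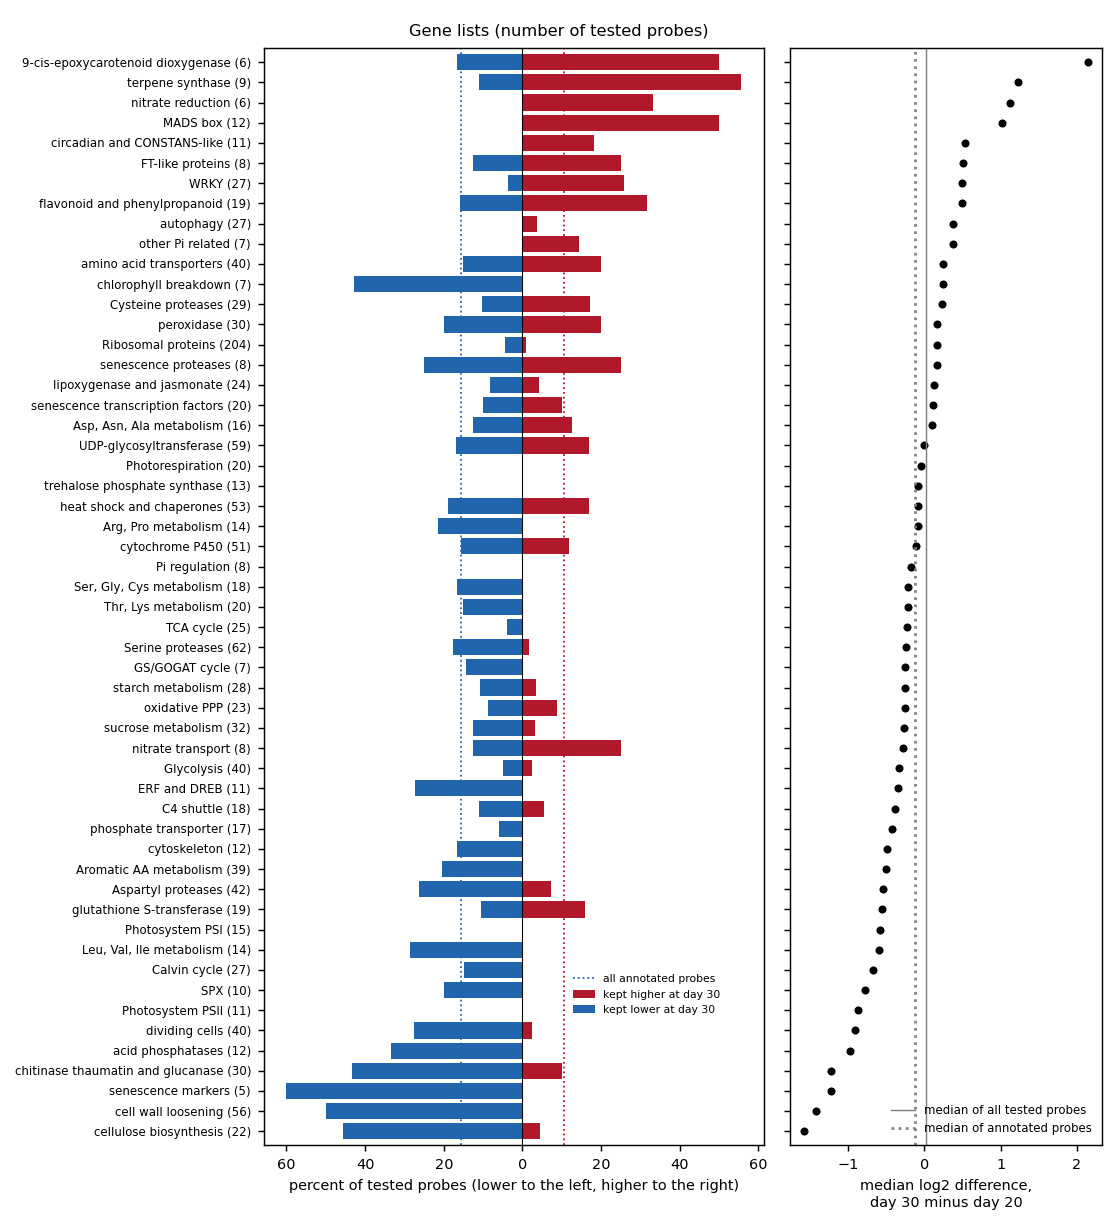
Gene groups ordered by median difference. The left panel gives the percent of tested probes kept as lower (left, blue) or higher (right, red) at day 30, with dotted lines at the shares over all annotated probes (15.5% and 10.5%), and the right panel gives the median log2 difference, day 30 minus day 20; cell wall loosening has 50.0% lower and none higher, and NCED has the highest median, 2.15.

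The same harvests could be compared in stressed plants, whose arrays the selection did not use: low N (0.15 mM KNO3) and low P (0.1 mM KH2PO4) leaves 6 at day 30 against low T leaves 5 at day 20, which had nights of 4 °C, with 4 arrays in each group. Here the stresses differ along with age, leaf, chamber and run, and the low T arrays shared their slides with control T. Of 31016 probes tested in stressed leaves, 6.44% were higher and 9.17% lower in both low N and low P, and over the 29562 probes tested in both sets the shares were 6.59% and 8.34%. Of the 1049 kept higher probes tested in stressed leaves, 405 (38.6%) passed as higher and 14 (1.33%) as lower. Of the 2407 kept lower probes, 1017 (42.3%) passed as lower and 19 (0.789%) as higher. The median difference of the kept higher probes was 1.477 in unstressed and 1.092 in stressed leaves, and that of the kept lower probes was -1.723 in unstressed and -1.215 in stressed leaves.

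Of the wall-loosening probes 23 were lower in stressed leaves, 18 of them among the 28 above, but all 56 were listed in the study because they changed under stress. Of the 10 lower cellulose probes, 4 were also lower in stressed leaves, close to the share of all kept lower probes. The beta-expansin GRMZM2G094990 differed in stressed leaves by -2.65. For GRMZM2G037431 the stressed difference was -6.02 and -5.88 at its 2 probes, and for the chitinases GRMZM2G162359 and GRMZM2G328171 it was -4.32 and -4.47. The nitrate transporter GRMZM2G044851 was higher in stressed leaves by 4.68 and 4.86, ZCN18 by 4.35, the WRKY gene GRMZM2G432583 by 5.41, TPS3 by 6.19 and see2b by 2.77. The dividing-cell list did not keep its direction, with a median of 0.62 in stressed leaves, 5 probes higher and 3 lower.

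Several of the largest unstressed differences did not pass in stressed leaves, where passing meant the same direction in both low N and low P. The AMP-activated kinase subunit GRMZM2G172214 differed there by -0.35 at the probe with the largest unstressed difference. Its 2 other probes, higher by 5.12 and 1.63 in unstressed leaves, differed there by -1.47 and -1.23. GRMZM2G000423 differed by 0.57 and 0.55, ZCN8 by 1.18, and the NCED genes GRMZM2G407181, GRMZM2G150363 and GRMZM2G110192 by 0.60, 0.86 and 1.18. Probes that passed the opposite way in both low N and low P were few, as given above. The mean difference kept its sign at 86.5% of the kept higher and 86.2% of the kept lower probes. Further probes therefore changed sign without passing that way. The peroxidase GRMZM2G089982 was higher by 3.15 ± 0.40 (SE) in unstressed leaves, at -2.73, -3.40, -1.67 and -0.74 in control N and -1.86, -2.14, -2.39 and -2.39 in control P, against -5.70, -5.06, -5.56 and -4.97 in control T, and lower in stressed leaves, with a difference of -3.54. The enzyme pgd3 passed as lower in stressed leaves (-1.48), and bz2 passed as higher there (5.02). Whether a stress or the harvest made these differences cannot be told apart.

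**Figure D5:**
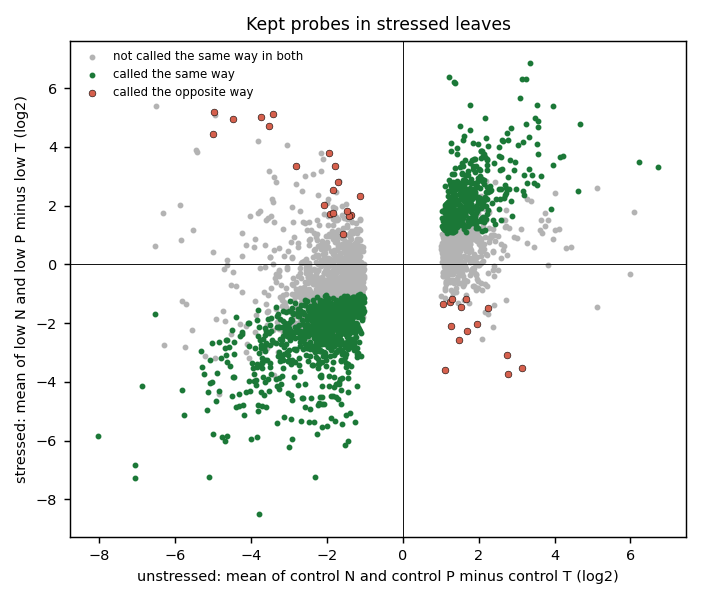
Log2 difference of each kept probe that was tested in stressed leaves, with the mean of control N and control P minus control T on the x axis and the mean of low N and low P minus low T on the y axis. Green points passed the same way in unstressed and stressed leaves (405 higher and 1017 lower), and red points passed the opposite way (14 and 19). Grey points did not pass in the same direction in both low N and low P.

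The day-30 groups were close to each other. Control N and control P differed at 147 of the tested probes (0.489%), and among the kept probes at 4 of the higher and 18 of the lower. A probe of the MADS box gene GRMZM2G105387, given above, was among those 4.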

How the data were processed

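Leaf RNA was hybridised to 1-colour custom maize arrays. Per the file headers and the submitters' processing notes, the deposited intensity values were extracted with Agilent Feature Extraction (11.0.1.1 in the headers, 11.7.1 in the notes), which subtracts the background and detrends the processed signal. The authors also deposited log2 values scaled to the 75th percentile and centred per probe in GeneSpring, which were used as an alternative. Here log2 processed signals were centred on the 75th percentile of the transcript probes of each array, outlier spots were left out and saturated ones were kept. The mean signal column was absent, so normexp background correction (offset 50) used the median signals. With limma 3.58.1 in R 4.3.3, 1 model of 3 groups was fitted to the 12 control arrays and another to the 12 stressed arrays; the study's methods give the limits (fold over 2, Benjamini-Hochberg adjusted p under 0.05) but name no test. The number of arrays, 4 per group, limits the precision. Each array is a biological replicate, and the main fit treated the arrays as independent. The correlation between arrays of the same slide, estimated over the 12 control arrays, was 0.72. The p-values of the main fit therefore do not fully account for variation between slides or plant sets. On simulated data (200 of 30053 probes changed), 79.4% to 97% of changed probes were recovered per size, with 2 false calls. The simulated arrays had independent noise and no slide effect, so these counts give no rate of false calls for the real slides. Samples were not paired by replicate number, because the study describes the stresses as independent experiments, each with its own controls. Correlations of same-numbered deviations ran between -0.0701 and 0.1775 and cannot settle pairing by themselves.

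Loci and descriptions came from the study's tables (3959 loci, 2512 matched in the RefSeq gene table of Zm-B73-REFERENCE-NAM-5.0, used for names). Single genes were named by size among bright, non-overlapping probes, by the largest differences in each of 54 gene lists, and as members of small nutrient, pigment and flowering lists. The probes and lists were chosen with earlier results of these data known. Alternatives covered background correction, scaling, filters, fits, blocks, slides, single arrays and, chosen after seeing the data, scan periods.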

Additional observations from a re-analysis of the deposited data

Results flagged for a closer look

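In 365 groups of 4 arrays from the probes named above, a single array was compared with the other 3 by Dixon's criterion, which chance alone exceeds in about 1 group in 20, and 10 arrays stood apart. In control N these were replicate 3 of allantoinase GRMZM2G173413 at a log2 level of 3.61, above the others, and replicate 4 of the NCED gene GRMZM2G150363 at 3.58, below the others. In control P, replicate 4 was above the others for the transporter GRMZM2G139834 (1.42) and below them for the SPX-MFS gene GRMZM2G166976 (0.35) and for aos, GRMZM2G067225 (-1.98). Control P replicate 2 was above the others for the purple acid phosphatase GRMZM2G434170 (-2.29), replicate 3 was above them for phosphoenolpyruvate carboxykinase GRMZM2G001696 (7.22), and replicate 1 was below them for the MADS box gene GRMZM2G120227 (-3.78). In control T, replicate 3 of MADS67, GRMZM2G147716, was above the others at its dimmer probe (-6.46), and replicate 4 of the amino acid transporter GRMZM2G101125 was below them (-2.11). These arrays were kept in all values above.

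At the brighter probe of the MADS box gene GRMZM2G105387, the day-30 groups differed in their distance to control T: control N minus control P was -1.26, with adjusted p = 0.016 (limma).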

How the results depend on the processing

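The 3527 kept probes depended most on background correction, scaling and slide. With normexp background correction, 2531 probes passed in control N against control T and 2042 in control P against control T, 429 were kept as higher and 1110 as lower, and 655 kept probes also passed in stressed leaves (1422 with the processing of the report). Spike-in scaling gave 8862 in control N against control T, 351 kept as higher and 5979 as lower. The slide as a random block left 618 in control P against control T, 206 higher, 341 lower and 263 that also passed in stressed leaves; all control P arrays share 1 slide. Without the second slide of control T (replicates 3 and 4), 7303 passed in control N against control T. Then 2090 were kept as higher and 3685 as lower, of which 983 and 2121 were among the kept probes of the report. Without the first slide the kept counts were 961 and 2098, and only 667 and 1531 of these were among the kept probes of the report. With no fold limit the counts were 12470 for control N, 13932 for control P, 4888 higher, 4882 lower and 4435 also in stressed leaves, and with a test against 1.5-fold they were 2463, 2746, 560, 1144 and 706. The MADS box gene GRMZM2G120227 changed sign at 1 probe under normexp (-0.05). Apart from what the alternatives were built to change, the cause was not tested.

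Leaving out single arrays gave 4141 to 6079 probes in control N against control T, 4676 to 6842 in control P against control T, 937 to 1370 kept as higher, 2061 to 3405 kept as lower and 1286 to 1606 that also passed in stressed leaves. The replicate number as a replicate block gave 1108 higher and 2493 lower, 1083 and 2385 of them among the kept probes, while same-numbered arrays of different groups correlated in their deviations at -0.0701 to 0.1775; the samples share only a number. The other fits, filters and scalings kept these counts within 1.5 times. Of 240 named probes, the share on the same side of the limits was 239 with the authors' scaled values, 228 with quantile normalization, 201 with spike-in scaling, 173 with normexp and 115 with the slide block. Signal near background limits dim probes: 123 of the kept higher and 784 of the kept lower probes were not well above background on all 12 arrays.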
